A study of Rattus norvegicus with 25 samples.

Results

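Fragments of processed transcripts were examined in the sperm of F0 rats, over the 25 smRNA libraries of the study. Processed transcript is the Ensembl class for transcripts of a gene that hold no open reading frame, and many of them are noncoding variants of genes that have other transcripts. The members were selected on their measured counts: a transcript of this class was kept when its raw count was 10 or more in at least 5 of the 25 libraries, and transcripts with the same counts in every library were taken once. Of the 3804 transcripts in the ncRNA matrix, 220 from 74 genes were of this class. The rule kept 79 of them, which held 73 distinct sets of counts from 33 genes, and these 73 are the members described here.

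The study sequenced the small RNA of caudal epididymal sperm from Sprague Dawley males that had self-administered morphine or saline intravenously. Sperm of 7 saline males (F0_SAL) and 7 morphine males (F0_MOR) was collected without abstinence, and sperm of 5 saline males (F0_ABS-SAL) and 6 morphine males (F0_ABS-MOR) after 90 days of abstinence. All males carried a jugular catheter, and all sperm passed through swim-up and hypotonic washes, which are meant to remove other cells. Each library came from 1 male and is called here by the letter of its column. The columns name treatment and a timepoint code, and the codes were matched to nonabstinent and abstinent sperm by the number of libraries in each group, since no source used here expands them. Abstinent males were collected later and at a greater age, no source used here names the batches of libraries, and so abstinence, age and batch cannot be told apart.

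Mature sperm do little transcription, and their RNA is mostly short pieces of RNAs made earlier in the testis or taken up in the epididymis. A smRNA library holds insert-sized pieces, so a count on a processed transcript is a number of fragments of it and not of whole molecules. Transcripts of 1 gene share exons, and a fragment from a shared exon is counted on each of them. In sperm pooled from a whole cauda, fewer cells of a type and less RNA per cell cannot be told apart. The matrix gives Ensembl identifiers and no gene names, and none of its 3492 gene identifiers was found in the RefSeq table at hand, so genes are given by identifier, with no role, position or sequence.

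The members were rare. With 1 transcript per gene, that with the highest mean count, they held a median of 0.0178% of the ncRNA counts of a library in F0_SAL and 0.0259% in F0_MOR. After abstinence the medians were 0.0220% (F0_ABS-SAL) and 0.0253% (F0_ABS-MOR). Mitochondrial rRNA held a median of 76.1%, 68.1%, 50.9% and 51.3% of the same groups. With mitochondrial rRNA left out of the total, the median share of the members was 0.0767%, 0.0890%, 0.0482% and 0.0551%, so the order of nonabstinent and abstinent saline sperm turned with the denominator. Mean raw counts over the libraries lay between 3.76 and 120, with a median of 11.9. The mean was under 10 for 27 members, under 20 for 49 and above 50 for 6.

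Depth moved with the timepoint. Libraries held 1540914 to 6489784 ncRNA counts, with medians of 3064414 (F0_SAL) and 2719189 (F0_MOR) before, and 5483348 (F0_ABS-SAL) and 4159610 (F0_ABS-MOR) after abstinence. Log2 total count was higher after abstinence by 0.70 in saline males (two-sided exact permutation test, p = 0.0227, n = 5 against 7) and by 0.71 in morphine males (p = 0.0175, exact, n = 6 against 7), and both adjusted p-values over the 2 tests were 0.0227. The median library of F0_SAL had 33 members at 10 counts or more and that of F0_MOR 34, and after abstinence the numbers were 52 (saline) and 55 (morphine). The rule was thus met more easily in abstinent sperm: 5 members reached 10 counts in no nonabstinent library, and 1 member in no abstinent library. The part of depth in these counts of members was not tested.

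Near the threshold, ENSRNOT00000093299.1 reached 10 counts in exactly 5 libraries with a mean count of 7. The transcripts that just missed it numbered 4, each with 10 counts in 4 libraries, and the highest means among them were 5.16 for ENSRNOT00000085526.1, 4.92 for ENSRNOT00000093633.1 and 4.32 for ENSRNOT00000087578.1. At the other end, 6 members had 10 counts or more in all 25 libraries.

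Transcripts of the same gene made up most of the members. In 23 of the 33 genes more than 1 transcript was kept, with 5 in each of the genes ENSRNOG00000005323.8 and ENSRNOG00000047386.3, and 10 genes had 1 member. After removal of group means, log2 CPM of ENSRNOT00000093026.1 and ENSRNOT00000057108.5, both of ENSRNOG00000004937.9, correlated at 0.999 over the 25 libraries, and the 4 members of ENSRNOG00000019648.8 correlated at 0.985 or more. Such pairs share reads and libraries and are not separate observations. In other genes the transcripts varied apart: the lowest correlation was 0.009 among the 4 members of ENSRNOG00000018960.7, 0.279 between both members of ENSRNOG00000011809.7 and 0.224 among the 4 members of ENSRNOG00000033581.5. The rows dropped as copies were 6, and the members that stood for more than 1 row were ENSRNOT00000056700.5 (3 rows) and ENSRNOT00000026719.5, ENSRNOT00000007660.8, ENSRNOT00000052054.4 and ENSRNOT00000075904.2 (2 rows each).

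The most abundant member, ENSRNOT00000057718.5 of ENSRNOG00000037951.5, was far more abundant in abstinent than in nonabstinent sperm. Its raw count was 0 to 17 in the 14 nonabstinent libraries and 122 to 458 in the 11 abstinent libraries. As normalized counts, which are raw counts scaled by TMM to a common library size, it was 0 at lowest, 5.56 at the median and 14.0 at highest in F0_SAL, and 0, 7.79 and 17.1 in F0_MOR. In F0_ABS-SAL the 5 libraries held 105, 148, 208, 283 and 420, and in F0_ABS-MOR the lowest, median and highest were 139, 246 and 339. No abstinent library came near a nonabstinent one, the lowest of the former being 6.14 times the highest of the latter.

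In edgeR the level of ENSRNOT00000057718.5 rose 40.0-fold in saline males (log2 fold change 5.32 ± 0.57 SE, adjusted p = 9.56e-10) and 26.6-fold in morphine males (4.73 ± 0.54 SE, adjusted p = 4.05e-09). Among the 482 ncRNA transcripts tested this was the largest rise in saline and rank 2 in morphine males. Within a timepoint the difference between treatments was 0.58 ± 0.54 SE without abstinence and -0.01 ± 0.50 SE after it, neither of which passed the test. It was called in both timepoint comparisons under all 12 other settings of test, scaling and filter that kept it and with any 1 library left out, with log2 fold changes of at least 4.12. Its gene had 3 other processed transcripts in the matrix, ENSRNOT00000076212.1, ENSRNOT00000076442.1 and ENSRNOT00000076971.1, which fell below the rule. The share of this single transcript in the counts of all members, 1 per gene, was at most 1.65% in a nonabstinent library and between 14.4% and 37.6% in an abstinent one.

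**Figure D1:**
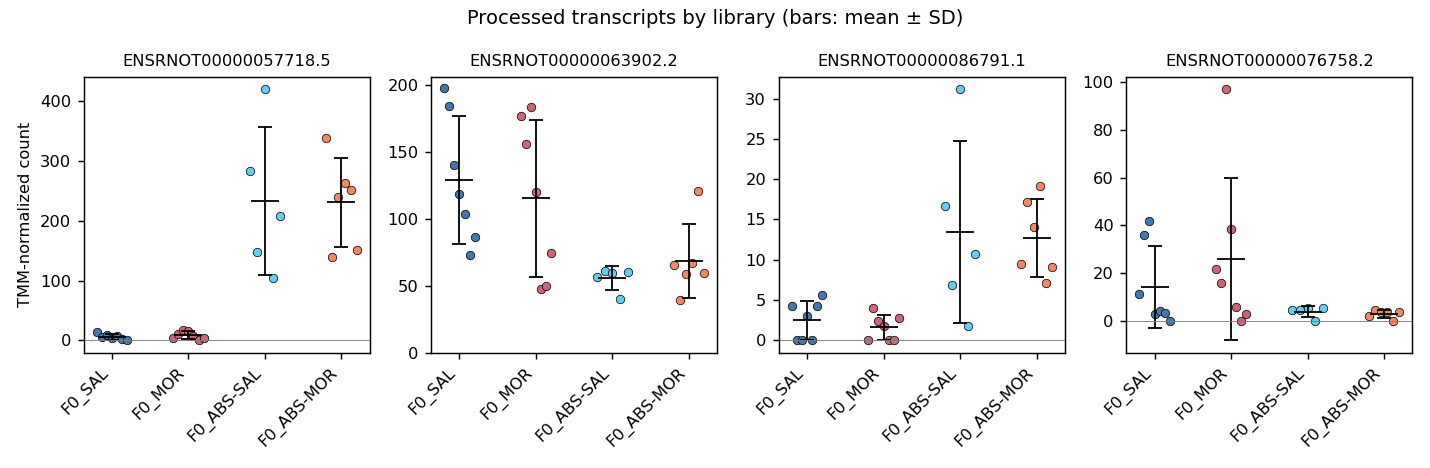
TMM-normalized counts of 4 processed transcripts in each library, by group, with a point per library and bars for the mean and SD. ENSRNOT00000057718.5 lay at 17.1 or less in nonabstinent and at 105 or more in abstinent libraries, ENSRNOT00000086791.1 was higher after abstinence in both treatments, ENSRNOT00000063902.2 was called lower in saline males only and ENSRNOT00000076758.2 in morphine males only, a difference between treatments that did not pass the test of the interaction.

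The remaining members moved less between timepoints. edgeR's filter on low counts left 64 members from 30 genes among the 482 transcripts tested, and the other 9 members, with mean counts of at most 7.08, were not tested in it. A transcript was called at a Benjamini-Hochberg adjusted p under 0.1 over all 482 and a log2 fold change beyond 0.58. In F0_ABS-SAL against F0_SAL 8 of the 64 members were called higher (12.5%) and 1 lower (1.56%), where of all transcripts tested 29.3% were higher and 7.26% lower. In F0_ABS-MOR against F0_MOR 13 members were called higher (20.3%) and 6 lower (9.38%), beside 28.8% and 6.85% of all transcripts. With DESeq2, whose 3804 transcripts include the many with few counts, 10.96% of the members against 4.78% of all transcripts were called in saline and 24.7% against 5.94% in morphine males, so which share was the larger depended on the transcripts taken as background. With 1 library left out at a time, 2 to 11 members were called higher in saline males (2 without library H, O or W) and 1 to 7 lower (7 without W), and in morphine males 3 to 12 higher (3 without M or Q) and 4 to 13 lower (13 without U). Shares over all transcripts moved too: 19.5%, 19.5% and 18.4% were higher in saline males without H, O and W, and 15.6% lower without W. In morphine males 20.3% and 24.1% of all transcripts were higher without M and Q, and 16.8% lower without U. The low-count filter and the rule let a transcript pass through its higher group, so these counts describe the members that passed and were not tested as a set.

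The median log2 fold change of the members was 0.27 in saline males, against 0.32 for all transcripts tested, and 0.54 in morphine males, against 0.30. All libraries of F0_ABS-SAL exceeded all libraries of F0_SAL for 2 members (3.13%, against 8.51% of all transcripts) and fell below them for 1 (1.56%, against 0.83%). For F0_ABS-MOR and F0_MOR the numbers were 3 (4.69%, against 18%) and 0 (against 0.622%). The members called in saline males came from 6 genes and those in morphine males from 12 genes. In both comparisons 8 members from 5 genes were called higher, none was called lower in both and none was called in opposite directions. Singly, 29.3% and 28.8% of all transcripts were called higher in saline and morphine males. The share of all transcripts called in both is not given here, so these numbers are not read as a trait of the members. Of the 8 members called higher in both, 4 from 2 genes had reached 10 counts in no nonabstinent library. The rule thus took these 4 for their abstinent counts, and their shared direction is a description. These comparisons share no library. A call in 1 of them and not in the other does not show a difference between treatments, and the interaction, which tests it, called no member.

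**Figure D2:**
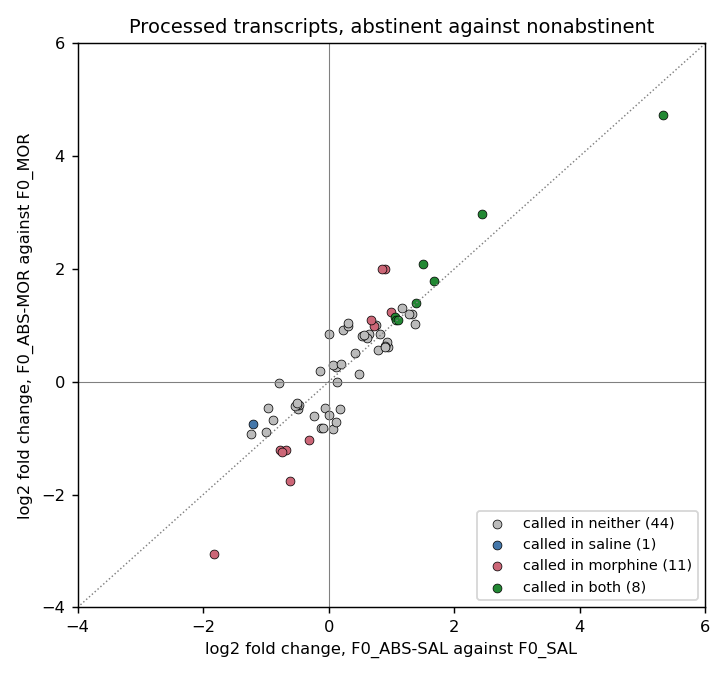
Log2 fold changes of the 64 tested processed transcripts after abstinence, in saline males on the x axis and in morphine males on the y axis, with a point per transcript coloured by call. The 8 called in both comparisons all lie in the upper right, 44 were called in neither, and ENSRNOT00000057718.5 stands alone at 5.32 and 4.73. The same counts over all transcripts tested are not given.

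The gene ENSRNOG00000033581.5 had 4 members, 3 of which were called higher after abstinence in both treatments. These 3 reached 10 counts in no nonabstinent library, with highest raw counts there of 4 (ENSRNOT00000086791.1), 6 (ENSRNOT00000079084.1) and 8 (ENSRNOT00000048985.5), so they became members only through abstinent sperm and their direction is fixed in part by the selection. ENSRNOT00000086791.1 was at 0, 2.92 and 5.58 normalized counts (lowest, median, highest) in F0_SAL and at 0, 1.75 and 3.98 in F0_MOR. It was at 1.72, 6.86, 10.7, 16.6 and 31.2 in the 5 libraries of F0_ABS-SAL and at 7.05, 11.7 and 19.2 in F0_ABS-MOR. The morphine groups did not overlap, while library R of F0_ABS-SAL lay within the range of F0_SAL. In edgeR it rose by 2.44 ± 0.76 SE (log2, adjusted p = 0.0144) in saline and by 2.97 ± 0.77 SE (adjusted p = 0.00253) in morphine males, and it was called under all 9 other settings that kept it.

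ENSRNOT00000079084.1, of the same gene, had nonabstinent medians of 3.12 (saline) and 3.08 (morphine) and abstinent medians of 8.75 and 9.43. It rose by 1.5 ± 0.66 SE (edgeR, adjusted p = 0.0842) and by 2.09 ± 0.65 SE (adjusted p = 0.0124). ENSRNOT00000048985.5 had medians of 4.17, 3.51, 13.1 and 9.23 in the same order and rose by 1.40 ± 0.57 SE (edgeR, adjusted p = 0.0635) and by 1.40 ± 0.56 SE (adjusted p = 0.0556). The most abundant transcript of the gene, ENSRNOT00000077635.1, with medians of 13.5, 15.4, 25 and 27.1, had log2 differences of 0.81 ± 0.41 SE and 0.84 ± 0.39 SE that missed the threshold (edgeR, adjusted p = 0.138 and 0.104). The call of ENSRNOT00000048985.5 was lost with DESeq2, with DESeq2 size factors and with total count scaling in both comparisons, and that of ENSRNOT00000079084.1 in saline males was lost with all of these too.

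Both members of ENSRNOG00000004937.9 were present at 10 counts or more in all 25 libraries. ENSRNOT00000093026.1 was at 20.5, 26.0 and 43.3 normalized counts in F0_SAL (lowest, median, highest) and at 16.6, 29.1 and 85.4 in F0_MOR. The 5 libraries of F0_ABS-SAL held 31.2, 36.1, 41.1, 71.1 and 120, and those of F0_ABS-MOR 15.6, 74.8 and 188. The groups overlapped in both comparisons. The transcript was called higher by 1.10 ± 0.47 SE and 1.09 ± 0.45 SE in edgeR (adjusted p = 0.0750 and 0.0651), and ENSRNOT00000057108.5, with nearly the same counts, by 1.08 ± 0.48 SE and 1.10 ± 0.45 SE (adjusted p = 0.0842 and 0.0651). DESeq2 and limma-voom called neither of them in either comparison. ENSRNOT00000002030.7 of ENSRNOG00000001482.7 had medians of 13.5, 9.65, 20.2 and 20.3 in the order F0_SAL, F0_MOR, F0_ABS-SAL and F0_ABS-MOR and rose by 1.05 ± 0.44 SE and by 1.14 ± 0.43 SE (edgeR, adjusted p = 0.0699 and 0.0393). That call was lost in both comparisons with DESeq2, with its size factors and with total count scaling.

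Lower after abstinence in saline males was a single member, ENSRNOT00000063902.2 of ENSRNOG00000003042.8, which had 10 counts or more in every library. It was at 72.8, 119 and 198 normalized counts in F0_SAL and at 40.4, 56.9, 59.6, 60.8 and 61.1 in the libraries of F0_ABS-SAL, so these groups did not overlap. It fell by 1.21 on the log2 scale (SE 0.39, edgeR, adjusted p = 0.0171). In F0_MOR it was at 47.8, 120 and 184 and in F0_ABS-MOR at 39.1, 62.9 and 121, and the log2 difference of -0.75 ± 0.36 SE missed the threshold (edgeR, adjusted p = 0.114). In morphine males it was called lower under 11 of the 13 other settings and with 10 of the 13 libraries of these groups left out 1 at a time.

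In morphine males 6 members were called lower, from 5 genes. ENSRNOT00000076758.2 of ENSRNOG00000000635.8 reached 10 counts in no abstinent library, so that nonabstinent sperm alone made it a member. It had the largest fall, by 3.06 on the log2 scale (SE 0.90, edgeR, adjusted p = 0.00782). Its values were uneven in nonabstinent sperm: 0, 15.9 and 96.9 in F0_MOR, with the highest in library G, and 0, 4.33 and 41.8 in F0_SAL. After abstinence no library exceeded 5.50, the F0_ABS-SAL libraries holding 0, 4.37, 4.38, 5.36 and 5.50 and those of F0_ABS-MOR 0, 3.64 and 4.69. The groups overlapped at their low ends, and the log2 difference in saline males, -1.82 ± 0.92 SE, missed the threshold (edgeR, adjusted p = 0.138).

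ENSRNOT00000076493.1 of ENSRNOG00000024799.6 fell by 1.21 in morphine males (SE 0.42, edgeR, adjusted p = 0.0271), from 28.6, 53.7 and 97.4 normalized counts in F0_MOR (lowest, median, highest) to 10.03, 25.1 and 33.6 in F0_ABS-MOR. Its levels in F0_SAL were 15.4, 31.4 and 77.5, and its log2 difference in saline males was -0.68 ± 0.44 SE (edgeR, adjusted p = 0.265). ENSRNOT00000093461.1 of ENSRNOG00000062252.1 fell by 1.03 (SE 0.39, edgeR, adjusted p = 0.0458), from a median of 50.7 to 31.5. ENSRNOT00000076401.1 of ENSRNOG00000002750.8, with a median of 5.42 in F0_MOR and 1.85 in F0_ABS-MOR, fell by 1.76 (SE 0.77, edgeR, adjusted p = 0.0857).

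The members that follow were picked after their values had been seen. In ENSRNOG00000018960.7 transcripts of the same gene went in opposite directions in morphine males. ENSRNOT00000090638.1 and ENSRNOT00000047472.5, which share nearly all counts, fell by 1.25 (SE 0.48, edgeR, adjusted p = 0.0463) and by 1.21 (SE 0.48, adjusted p = 0.0525). ENSRNOT00000081637.1 was called higher by 0.99 ± 0.42 SE (edgeR, adjusted p = 0.0771), a call that 9 of the 11 other settings lost, and ENSRNOT00000084571.1 stood at -0.47 ± 0.40 SE (adjusted p = 0.399). In ENSRNOG00000011809.7, ENSRNOT00000060495.3 rose in both treatments, by 1.67 ± 0.63 SE and 1.79 ± 0.60 SE (edgeR, adjusted p = 0.0421 and 0.0226), while ENSRNOT00000076459.2 had log2 differences of -0.97 ± 0.57 SE and -0.47 ± 0.52 SE (adjusted p = 0.212 and 0.523).

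ENSRNOT00000060495.3 had 0 to 8.67 normalized counts in F0_SAL and 9.46 to 21.1 in F0_ABS-SAL, without overlap, and 0 to 12.0 in F0_MOR and 10.2 to 33.9 in F0_ABS-MOR, where the groups overlapped. It too had reached 10 counts in no nonabstinent library and was a member only through abstinent sperm. For ENSRNOT00000076459.2 the ranges were 5.85 to 23.8, 3.67 to 7.88, 1.99 to 27.0 and 1.48 to 17.6 in the same order. In nonabstinent sperm the median of ENSRNOT00000076459.2 was the higher of the pair, and in abstinent sperm that of ENSRNOT00000060495.3.

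The ratio of a pair of transcripts within a library is left unchanged by the scaling of libraries. With 1 added to each raw count it still depends on depth where counts are low, and depth was higher after abstinence. ENSRNOT00000060495.3 had 0 to 8 raw counts in nonabstinent libraries. As log2 of (count + 1), the ratio of ENSRNOT00000060495 to ENSRNOT00000076459 averaged -1.28 ± 0.98 (SD, n = 7) for F0_SAL against 1.21 ± 0.63 (SD, n = 5) for F0_ABS-SAL. For F0_MOR it averaged -1.17 ± 1.77 (SD, n = 7) against 1.10 ± 0.84 (SD, n = 6) for F0_ABS-MOR. The ratio of ENSRNOT00000081637 to ENSRNOT00000090638 was -0.64 ± 0.91 (SD, n = 7), 0.84 ± 0.15 (SD, n = 5), -0.39 ± 0.87 (SD, n = 7) and 1.57 ± 1.19 (SD, n = 6) in the same order. For both genes the saline groups did not overlap, and the morphine groups did. Since the pairs were picked for this difference, no test is given.

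**Figure D3:**
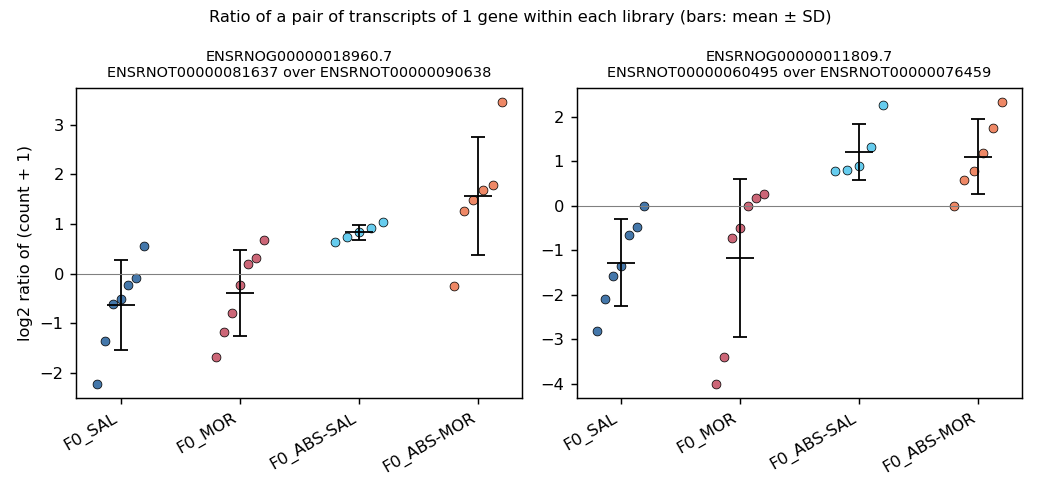
Log2 ratio of (count + 1) for a pair of transcripts of ENSRNOG00000018960.7 (left) and of ENSRNOG00000011809.7 (right) in each library, by group, with bars for the mean and SD. Mean ratios were below 0 in both nonabstinent groups and above 0 in both abstinent groups.

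In ENSRNOG00000005323.8, ENSRNOT00000058735.4 and ENSRNOT00000078463.1, which share most counts, rose by 2.00 in morphine males (SE 0.72 and 0.73, edgeR, adjusted p = 0.0336 and 0.0342), and in saline males differed by 0.90 ± 0.76 SE and 0.84 ± 0.76 SE, short of the threshold. In ENSRNOG00000025244.7, ENSRNOT00000076323.2 and ENSRNOT00000091346.1 rose in morphine males by 1.23 ± 0.45 SE and 1.10 ± 0.45 SE (edgeR, adjusted p = 0.0345 and 0.0646), calls that held under 5 and 2 of 11 other settings and were lost with DESeq2, its size factors and total count scaling. The third transcript of that gene, ENSRNOT00000030545.7, had a difference of 0.84 ± 0.40 SE that missed the threshold (edgeR, adjusted p = 0.114).

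No member passed the test between treatments. In F0_MOR against F0_SAL, in F0_ABS-MOR against F0_ABS-SAL and in the interaction of treatment and timepoint edgeR called 0 of the 64 members, as it called 0% of the 482 transcripts in each. At an unadjusted p under 0.05, edgeR had 0 members in each of the 3, beside 25, 1 and 23 of all 482 transcripts. DESeq2 had 0 members in each and limma-voom 0, 1 and 0, and neither DESeq2 nor limma-voom called any. The smallest adjusted p of a member was 0.671, 0.992 and 0.987. The members' log2 differences between treatments ranged from -0.91 to 0.87 without abstinence and from -1.39 to 0.93 after it, with medians of 0.04 and 0.05.

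The members nearest to a difference stayed far from the threshold. ENSRNOT00000076157.1 and ENSRNOT00000056700.5 of ENSRNOG00000027907.7 had medians of 11.2 normalized counts in F0_SAL and 4.07 in F0_MOR, with overlapping ranges of 2.78 to 15.6 and 1.75 to 7.79, and a log2 difference of -0.91 ± 0.51 SE each. After abstinence ENSRNOT00000076401.1 stood at -1.39 ± 0.82 SE and ENSRNOT00000092557.1 of ENSRNOG00000028016.7 at 0.93 ± 0.86 SE. For the interaction, taken as the morphine difference without abstinence minus that after it, ENSRNOT00000026719.5 of ENSRNOG00000019648.8 stood at 0.90 ± 0.68 SE and ENSRNOT00000093461.1 at 0.72 ± 0.56 SE.

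Library H of F0_SAL and library N of F0_MOR stood apart for a few genes. Both were the highest of their group for 11 of the 64 members (17.2%) from 3 genes, against 19 of the 482 transcripts tested (3.94%), and the highest pair of all 25 libraries for 6 members from 2 genes. ENSRNOT00000072266.2, the most abundant of 5 members of ENSRNOG00000047386.3, was at 163 normalized counts in library H and 135 in library N, 3.43 and 2.74 times the next library of the group. Its median was 16.6 in F0_SAL and 16.3 in F0_MOR, and its highest value after abstinence was 57.8 in F0_ABS-SAL and 43.0 in F0_ABS-MOR. ENSRNOT00000092374.1 and ENSRNOT00000092599.1 of this gene, with ENSRNOT00000076758.2, had the largest within-group SD of log2 CPM, 1.38, 1.41 and 1.44. None of the 5 was called in any comparison.

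ENSRNOT00000092100.1 of ENSRNOG00000005323.8 was at 168 in library H and 150 in library N, beside nonabstinent medians of 30.6 (saline) and 27.8 (morphine) and abstinent medians of 89.3 and 81.2. With all libraries its log2 differences after abstinence were 0.56 ± 0.53 SE and 0.83 ± 0.51 SE, short of the threshold (edgeR, adjusted p = 0.459 and 0.227). Without both libraries they were 1.14 and 1.49 and passed it (edgeR, adjusted p = 0.0390 and 0.00362), an alternative chosen after the values had been seen. Of the 57 members then tested, 5 were called higher and 1 lower in saline males, beside 25.8% and 8.68% of all 461 transcripts. In morphine males 6 members were called higher and 6 lower, beside 27.1% and 8.24% of all transcripts. ENSRNOT00000071067.2 of ENSRNOG00000046171.3, rank 2 in abundance, also had its highest F0_SAL value in library H, at 190, and showed log2 differences after abstinence of -0.47 ± 0.38 SE and -0.42 ± 0.36 SE (edgeR, adjusted p = 0.394 and 0.414).

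**Figure D4:**
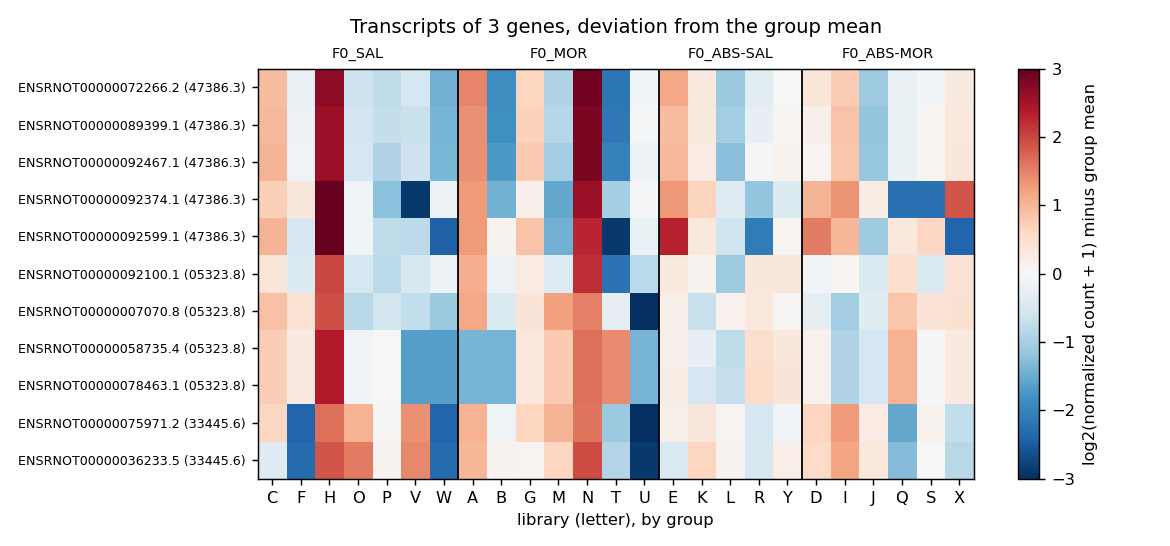
Deviation of log2(normalized count + 1) from the group mean for 11 processed transcripts of 3 genes (y axis, with the end of the gene identifier) in the 25 libraries (x axis), with colours that stop at 3 in either direction. The rows are the members for which libraries H and N were both the highest of their group. That both libraries are above their group mean in every row follows from this choice.

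Transcripts outside the class with the most similar pattern were mostly lincRNAs. For 11 of the 13 members that were most abundant or among the strongest calls of a timepoint comparison, the transcript with the highest Pearson correlation of log2 CPM, after removal of group means, was a lincRNA. Members were left out of this comparison, and the 121 lincRNAs were the largest class among the 407 tested transcripts with distinct counts. The number is therefore not read as a trait of the members. These are descriptions over 25 libraries that share depth and scaling. ENSRNOT00000063902.2 went with ENSRNOT00000091531.1 of ENSRNOG00000053588.1 at 0.875, and ENSRNOT00000092100.1 with ENSRNOT00000079820.1 of ENSRNOG00000056268.1 at 0.819. ENSRNOT00000091531.1 was also most like ENSRNOT00000093026.1 and ENSRNOT00000057108.5, so the 11 are not separate observations. ENSRNOT00000057718.5 and ENSRNOT00000076758.2 were both most like ENSRNOT00000077925.1 of ENSRNOG00000052067.1, at 0.706 and 0.869, a lincRNA with log2 differences after abstinence of -6.86 in saline and -5.24 in morphine males. The mean count of that lincRNA was only 7.6, and ENSRNOT00000057718.5 had 0 to 17 raw counts in nonabstinent libraries, so these likenesses rest on low counts. Likeness within groups did not carry over to the direction between timepoints for several of the 13 members: ENSRNOT00000093026.1, ENSRNOT00000057108.5, ENSRNOT00000086791.1 and ENSRNOT00000092100.1 also had positive log2 differences in both treatments where those of the most similar transcript were negative.

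Among the classes of the ncRNA matrix, selected in the same way, edgeR calls after abstinence were less frequent in processed transcripts than in several others. In saline males 14.1% of the tested processed transcripts were called in either direction, beside 32.4% of all 407 tested transcripts with distinct counts. The shares were 20.7% of 121 lincRNAs, 64.3% of 14 snoRNAs, 71.4% of 35 snRNAs, 47.1% of 68 misc_RNAs and 35.6% of 73 rRNAs. In morphine males 29.7% of the processed transcripts and 34.9% of all were called, with class shares of 26.4%, 71.4%, 54.3%, 48.5% and 34.2% in the same order. With DESeq2 the members' share lay above that of all its transcripts, as given above. Counts of the members were low, with a median mean of 11.9, and the part of this in the shares was not tested. These shares were not tested against each other, since transcripts of 1 gene or family share reads.

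The split into higher and lower calls depended on the scaling of libraries. TMM as used put 8 higher and 1 lower in saline and 13 higher and 6 lower in morphine males. With the size factors of DESeq2 in the same edgeR fit the numbers were 3 and 6, and 6 and 14, while over all 482 transcripts they went from 141 and 35 to 120 and 70 in saline and from 139 and 33 to 108 and 94 in morphine males. Total count alone gave 2 and 2, and 4 and 11, beside 89 and 55, and 98 and 84 over all transcripts. DESeq2 itself gave 3 and 5, and 4 and 14, among all 73 members, beside 109 and 73, and 115 and 111 among its 3804 transcripts. With limma-voom the members' numbers were 11 and 1, and 18 and 7, beside 136 and 39, and 159 and 41 over all 482 transcripts. The median log2 fold change of all 482 transcripts moved with the scaling, from 0.32 and 0.30 with TMM to 0.06 and -0.09 with DESeq2 size factors and 0.13 and -0.18 with total count. The members' median minus that of all transcripts was -0.05 in saline and 0.24 in morphine males with TMM, and -0.08 and 0.26 with DESeq2 size factors. It had no fixed sign: over all settings with no single library left out it ran from -0.55 to 0.49 in saline and from -0.59 to 0.35 in morphine males, and in morphine males it was -0.08 without mitochondrial rRNA and -0.14 with only these groups in the model. Both low ends came from the filter of 10 counts in every library, which kept only 6 members. No called member changed sign under any of these settings. ENSRNOT00000057718.5 was called in both comparisons under every other setting that kept it and with any 1 library left out. The same held for ENSRNOT00000076758.2 in morphine males. ENSRNOT00000086791.1 was called in both comparisons under every other setting that kept it. With 1 library left out it passed the filter in 22 of the 25 runs and was called in those. Each of these 2 transcripts met the count rule only through the timepoint where it was high, so the repeated calls do not support them independently.

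**Figure D5:**
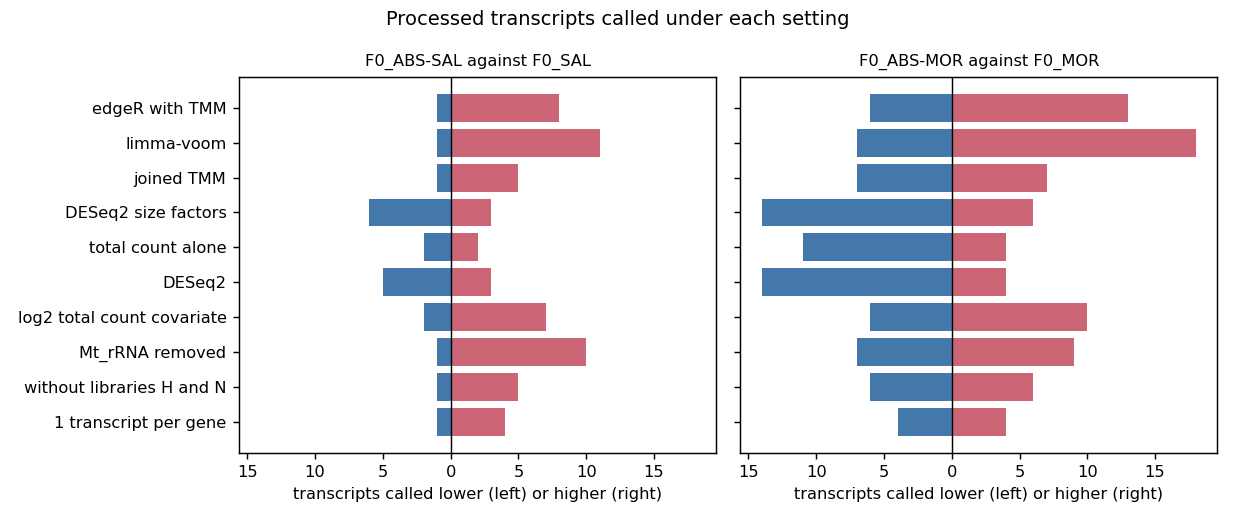
Number of processed transcripts called higher (right of 0) and lower (left of 0) after abstinence under 10 settings of test, scaling or libraries, in saline and morphine males. Higher calls outnumber lower ones in the main edgeR fit with TMM and in limma-voom, and lower calls outnumber higher ones with DESeq2 and its size factors. In morphine males the numbers are equal with joined TMM (7 and 7), without libraries H and N (6 and 6) and with 1 transcript per gene (4 and 4). The calls over all transcripts are not drawn.

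Markers of other cells were read from the miRNA matrix of the same libraries. All 9 miRNAs listed for male germ cells were present, at a summed 341209 to 759936 CPM in nonabstinent and 193940 to 446598 CPM in abstinent libraries. After abstinence 3 of them were called lower in saline males and 0 were called in morphine males. Of the 6 listed for epithelium, summed at 6416 to 11125 CPM in nonabstinent and 8536 to 18840 CPM in abstinent libraries, 4 were called higher after abstinence in saline and 2 in morphine males. Of the 4 for muscle, at 13025 to 17614 CPM in nonabstinent and 15619 to 81474 CPM in abstinent libraries, 3 and 1 were higher. Of the 6 for leukocytes, at 1153 to 2501 and 1939 to 3055 CPM, 1 was higher in each treatment and 1 lower in morphine males, and of the 4 for erythroid cells 3 were in the matrix, at 929 to 2741 and 308 to 1291 CPM, and all 3 were lower in morphine males. In library H the epithelial sum was 10606 CPM, the highest of F0_SAL, and in library N 11084 CPM, near the highest of F0_MOR at 11125 CPM. Abstinent medians for epithelium were 10604 CPM (saline) and 12514 CPM (morphine). The other lists did not all go this way. Library N also had the highest germ cell sum of F0_MOR, 522732 CPM, while that of library H, 487972 CPM, lay below the F0_SAL median of 546408 CPM. For erythroid cells and muscle, library H held 1033 and 15243 CPM, beside F0_SAL medians of 1033 and 15211 CPM. Library N held 2125 and 17018 CPM, beside F0_MOR medians of 1435 and 14374 CPM. The share of all miRNAs called in each direction is not given here, so these calls are not read as a shift of a cell type. The part of these cells in the members' changes was not tested.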

How the data were processed

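smRNA of caudal sperm was sequenced in 25 libraries. Libraries came from a NEBNext kit for small RNA, and of the paired reads the authors kept the forward one. With sRNAbench they mapped reads to the rat genome (per the labels rn6), annotated miRNAs first and then, from the reads left over, Ensembl ncRNAs. They deposited raw counts per transcript, without normalization, in 2 matrices, and the smallest count above 0 was 2. All columns were used. Letters were not linked to samples, so libraries have a group and no replicate number. Totals of 1540914 to 6489784 ncRNA counts make 10 counts 0.000649% to 0.000154% of a library, and counting error alone is large for most members.

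The members and all lists were chosen with earlier results of these data known. Counts of all 3804 transcripts were filtered with filterByExpr over the 4 groups and fitted in 1 quasi-likelihood model of edgeR 4.0.16 (R 4.3.3) with TMM, and p-values were adjusted by Benjamini and Hochberg over the 482 transcripts tested. The common dispersion was 0.262 and TMM factors were 0.571 to 1.61. SE is the log2 fold change over the square root of F. Log2 CPM used a prior count of 2. The script was tested on simulated data. Members named are the 6 most abundant, the 6 smallest p among calls of each timepoint comparison, the 2 smallest p of each other comparison, rows with copies, those near the threshold and the 3 of largest within-group SD. Alternatives were DESeq2 1.42.0, limma-voom (limma 3.58.1), other scalings, filters, thresholds and covariates, and each library left out. Males are separate animals, so the edgeR p-values set a group difference against the spread between males, estimated over the 4 groups together. In the timepoint comparisons that difference also holds age and batch.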

Additional observations from a re-analysis of the deposited data

Results flagged for a closer look

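Single libraries lay far from the rest of their group in 8 of 92 groups of values checked by the gap to the nearest library over the range of the group, and chance alone gives about 1 in 20. On log2 CPM, library R of F0_ABS-SAL was lowest for ENSRNOT00000063902.2, at 3.55 with the next at 4.02, and for ENSRNOT00000076758.2, at -0.91 with the next at 0.80. Library H of F0_SAL was highest for ENSRNOT00000092100.1, at 5.56 with the next at 3.93, and library L of F0_ABS-SAL was lowest for the same transcript, at 3.31 with the next at 4.48. Library N of F0_MOR was lowest for ENSRNOT00000079084.1, at -0.91, the value of a count of 0, with the next at 0.36. Library E of F0_ABS-SAL was lowest for ENSRNOT00000076493.1, at 1.44 with the next at 2.75. Library L of F0_ABS-SAL was highest for ENSRNOT00000026719.5, at 4.15 with the next at 2.58. The log2 total ncRNA count of library O was highest in F0_SAL, at 22.63 with the next at 21.76.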

How the results depend on the processing

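The 0 calls between treatments and in the interaction held under every alternative run. Numbers of members called after abstinence did not, and the cause was not tested beyond the fewer transcripts or libraries some settings use. Calls over all transcripts moved too, as given above for DESeq2 size factors, total count alone and single libraries left out. In F0_ABS-SAL against F0_SAL, where 8 were called higher and 1 lower, members called higher and lower were 3 and 5 with DESeq2, 3 and 6 with DESeq2 size factors, 2 and 2 with total count alone and 4 and 0 without a filter. Higher calls were 5 with TMM factors from both matrices joined, 2 of the 6 members with 10 counts in every library, 4 with identical transcripts reduced, 3 of 41 with only these groups in the model, 5 without libraries H and N, 4 of 30 with 1 transcript per gene and 3 at an adjusted p under 0.05, and lower calls were 2 with log2 total count as a covariate. With 1 library left out, 2 to 11 were higher and 1 to 7 lower: higher calls were 2 without library H, O or W, 3 without K, 4 without P and 5 without C or Y, and lower calls were 7 without W, 3 without H and 2 without O. Of all transcripts, 23.6% were higher without K, 25.9% without P, 29.1% without C and 26.4% without Y. Lower were 14.5% without H and 9.83% without O. In F0_ABS-MOR against F0_MOR, where 13 were higher and 6 lower, the numbers were 4 and 14 with DESeq2, 6 and 14 with DESeq2 size factors, 4 and 11 with total count alone, 6 and 2 without a filter and 2 and 2 with 10 counts in every library. Higher calls were 7 with joined TMM factors, 3 of 43 with only these groups, 6 without libraries H and N, 4 with 1 transcript per gene and 8 at an adjusted p under 0.05. Of all transcripts, 25.1% were higher with joined factors, 28.3% with only these groups, 27.1% without H and N and 28.4% with 1 per gene. Without a filter 4.5% were higher and 1.24% lower, and with 10 counts in every library 32.5% and 14.2%. With 1 library left out, 3 to 12 were higher and 4 to 13 lower: higher calls were 3 without M or Q, 4 without A, G or J, 6 without U, 7 without N or I and 8 without X, and lower calls were 13 without U. The log2 fold change of ENSRNOT00000092100.1 in saline males, 0.56 and short of the threshold, was between -0.088 (without library W) and 0.97 (without library H) with 1 library left out. The 73 members were 110 at 5 counts in 5 libraries, 32 at 20 counts and 6 with 10 counts in all 25 libraries. Of the values for single members, 524 kept direction and side of the threshold, 108 lost it, 29 passed it newly, 1 changed sign (ENSRNOT00000092100.1, above) and 4 shares of counts moved. No paired analysis was possible because the columns carry no replicate number. Low counts limit most members: the mean was under 20 for 49 of 73.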
